A study of Mus musculus with 2 samples.

Results

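Loci with raised STAT5 signal before IL-2 were taken from a table of genes near STAT5 binding regions in mouse effector CD8 T cells. The assay was ChIP-seq, in which DNA recovered with an antibody to a protein, here STAT5, is sequenced. Members were selected on the control library alone: a gene was taken when the deposited mean peak height over its regions in the library without IL-2, called control height here, was 8 or more in signal units. T cell receptor segment genes were left out. The rule took 193 of 4835 genes (3.99%). They shared 137 of the 5703 regions called in the IL-2 library, and joining genes with a common region gave 118 loci. Of these loci 72 held 1 member gene, 28 held 2, and 18 held 3 or more.

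Both groups were OT-I CD8 T cells, whose transgenic receptor recognises the SIINFEKL peptide of ovalbumin, and the labels give the strain as C57BL/6. The cells were transferred into mice, primed in vivo by that peptide plus agonists of CD134 and CD137, and sorted from spleens after 4 days. The control group was 1 library of cells whose treatment is labelled none, and the IL-2 group was 1 library after 1 hour in vitro with IL-2 at 0.5 µg/ml. How many mice stood behind each library was not given in the sources used here. Of 10 marker genes of effector CD8 T cells 9 had a listed region, against 1 of 7 for B cells and 1 of 6 for myeloid cells, and a region does not show expression. No input library is in the table, so STAT5 binding and the local level of sequencing signal cannot be told apart in either library.

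STAT5 waits in the cytoplasm until kinases at a cytokine receptor phosphorylate it, after which it pairs, enters the nucleus and binds DNA at the palindrome TTCNNNGAA. In CD8 T cells IL-2 and related cytokines drive it, and it is known for survival, growth and effector genes. Other cytokines, IL-7 and IL-15 among them, act through the same factor.

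The 2 microRNA loci with the most textbook background are shown by their mature sequences, from RefSeq (GRCm38.p6), with the seed, bases 2 to 8, in capitals. MicroRNAs lower the output of mRNAs that pair with this seed. The locus of Mir29a and Mir29b-1 on chromosome 6 had a control height of 11 and an IL-2 height of 66, and that of Mir23a, Mir27a and Mir24-2 on chromosome 8 had 8 and 15.
miR-29a-3p: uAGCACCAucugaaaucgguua
miR-29b-3p: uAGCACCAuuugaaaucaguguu
miR-23a-3p: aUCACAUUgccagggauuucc
miR-27a-3p: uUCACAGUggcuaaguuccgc
miR-24-3p: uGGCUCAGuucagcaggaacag
The miR-29 pair share the seed AGCACCA, and the other 3 have seeds of their own. The region of the miR-29 locus lay 9387 bp upstream of Mir29b-1, and that of the miR-23a locus 3894 bp upstream of Mir23a.

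Promoter sequence is shown for member genes with a matching RefSeq promoter whose region lay within the 250 bases before the gene start. Members without such a match are not shown, also where their region lay in that span. Of the 90 member genes whose start in the table equals that of a RefSeq promoter (GRCm38.p6), 4 had a region there. The 250 bases before each start follow, 5′ to 3′ on the gene's strand, with any match to TTCNNNGAA in capitals.
Uhrf1bp1l (chr10:89744741-89744990, + strand): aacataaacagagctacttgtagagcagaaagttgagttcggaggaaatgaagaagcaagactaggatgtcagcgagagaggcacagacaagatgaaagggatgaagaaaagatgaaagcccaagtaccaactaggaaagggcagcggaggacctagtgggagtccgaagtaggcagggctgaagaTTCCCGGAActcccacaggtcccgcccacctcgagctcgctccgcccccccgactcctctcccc
Jmjd7 (chr2:120027233-120027482, + strand): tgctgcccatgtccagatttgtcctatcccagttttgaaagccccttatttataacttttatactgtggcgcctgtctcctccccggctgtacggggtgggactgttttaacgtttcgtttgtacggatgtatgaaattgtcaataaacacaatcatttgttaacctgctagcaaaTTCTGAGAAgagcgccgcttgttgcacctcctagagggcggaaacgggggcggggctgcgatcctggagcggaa
Slfn2 (chr11:83064862-83065111, + strand): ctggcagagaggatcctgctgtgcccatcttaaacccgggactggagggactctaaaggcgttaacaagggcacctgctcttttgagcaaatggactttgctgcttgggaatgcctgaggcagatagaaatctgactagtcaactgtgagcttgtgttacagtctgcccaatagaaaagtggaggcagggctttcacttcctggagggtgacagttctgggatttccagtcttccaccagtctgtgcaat
Sytl1 (chr4:133263088-133263337, - strand): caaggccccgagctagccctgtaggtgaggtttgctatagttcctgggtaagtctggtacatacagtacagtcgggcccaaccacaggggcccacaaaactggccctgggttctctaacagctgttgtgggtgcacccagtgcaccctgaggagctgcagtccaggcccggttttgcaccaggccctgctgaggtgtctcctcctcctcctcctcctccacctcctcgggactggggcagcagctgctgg
The promoters of Uhrf1bp1l (control height 10, IL-2 height 36) and Jmjd7 (8 and 42) held the motif, its first base 64 and 74 bases before the start. Those of Slfn2 (8 and 64 over 2 regions) and Sytl1 (8 and 29) did not hold these letters in this window. The motif reads the same on both strands. It was in 89 of 198 such windows of other genes with a region in them (44.9%), in 74 of 1521 of other genes with no region within 1 kb (4.87%), and in 2306 of all 32851 windows of the RefSeq table (7.02%). Orai1 (8 and 22, region 306 bp upstream) and Tnip1 (8 and 43.5, nearest region 388 bp upstream) held the motif with a region within 1 kb but outside the window. So did Zfp213 (8 and 17, region 402 bp inside the gene), and no other of the 90 member genes did. Members without a matching RefSeq promoter were not searched. Of member genes with no region within 1 kb, 5 of 66 held the motif (7.58%). Orai1 forms the pore of the store-operated calcium channel. Over all 90 member windows 10 held the motif (11.1%), against 227 of 2482 of other listed genes (9.15%). GC content of these windows had a median of 59.8% in members and 59.6% in other genes.

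The strongest control signal lay at 2 loci. The 2 regions downstream of Mir101c, at positions 3030176 and 3035808 of chromosome 9 (mm10), had a mean control height of 92.5 and a mean IL-2 height of 129.5. The region at position 11144096 of chromosome 16, within Zc3h7a, which encodes a CCCH zinc finger protein, and upstream of Txndc11, which encodes a thioredoxin domain protein, had 40 and 81. All other members lay between 8 and 13 in the control library. The IL-2 height was 1.4 times the control height at Mir101c and 2.03 times at Txndc11.

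**Figure D1:**
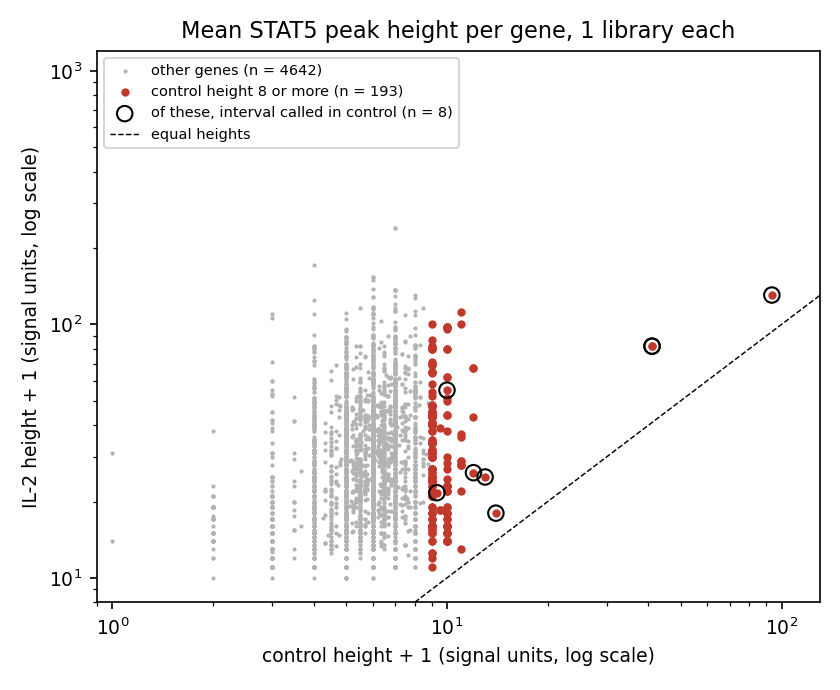
Control height (horizontal) against IL-2 height (vertical) for each listed gene, both plus 1 in signal units on log axes. Members start at a control height of 8, rings mark the 8 member genes with an interval called in the control library, and every member lies above the line of equal heights on the deposited scale.

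An interval, the peak caller's own region, was called in the control library at 7 of the 118 loci, or 8 of the 193 member genes. Of all 4835 genes 12 had one, the other 4 being 2310001H17Rik, Selplg, Ppp3cc and Prkce, with control heights from 6.17 to 7.25. Besides Mir101c and Txndc11 these were Zfpm1, a cofactor of GATA factors (13 and 17), Erdr1 on the Y chromosome (12 and 24), Farsb, a subunit of phenylalanyl-tRNA synthetase (11 and 25), Coro1c, an actin-binding coronin (9 and 54 over 2 regions), and Klf2, a transcription factor of T cell quiescence and trafficking (8.33 and 20.67 over 3 regions). At Mir101c the control and IL-2 intervals had the same positions, and at Txndc11 they lay 16 bp apart. At Farsb, Klf2, Zfpm1, Erdr1 and Coro1c the gap from the control interval to the nearest IL-2 interval was 288, 224, 848, 1312 and 1744 bp. The control interval of Farsb lay 46 bp inside the gene and the IL-2 region 242 bp upstream of the start. At Klf2 they lay 170 and 394 bp inside the gene. The control interval of Coro1c was 427 bp upstream of Selplg, which encodes a selectin ligand, and Selplg itself missed the rule with a mean of 7.25 over 4 regions.

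Loci with a control height of 10 or more numbered 15 and differed widely in IL-2 height. The region upstream of Rsph3a, a radial spoke protein, had 10 and 111. It was also assigned to Tagap, a GTPase-activating protein of activated T cells, whose mean over 3 regions was 7.33 and 50.67. The region downstream of Dhx37, an RNA helicase of ribosome assembly, had 10 and 99. At the other end Tnrc18 had 10 and 12 in a region 22795 bp inside the gene. So equal control heights went with IL-2 heights from 12 to 111.

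Several of these loci lay at or near gene starts. Parp14, an ADP-ribosyltransferase that acts with STAT6, had 10 and 35 at 22 bp inside the gene. Cyp51, an enzyme of cholesterol synthesis, had 10 and 21 at 263 bp upstream. Supv3l1, a mitochondrial RNA helicase, had 10 and 27 at 371 bp upstream, in a region shared with 4930507D05Rik and Vps26a. Dgka, a diacylglycerol kinase that dampens T cell receptor signalling, had 10 and 28 at 1128 bp upstream, in a region shared with Wibg. The locus of Spice1 and Sidt1 had 2 regions. The table determines them as 11 and 42 for the region upstream of both genes and 7 and 13 for the region at the start of Sidt1.

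**Figure D2:**
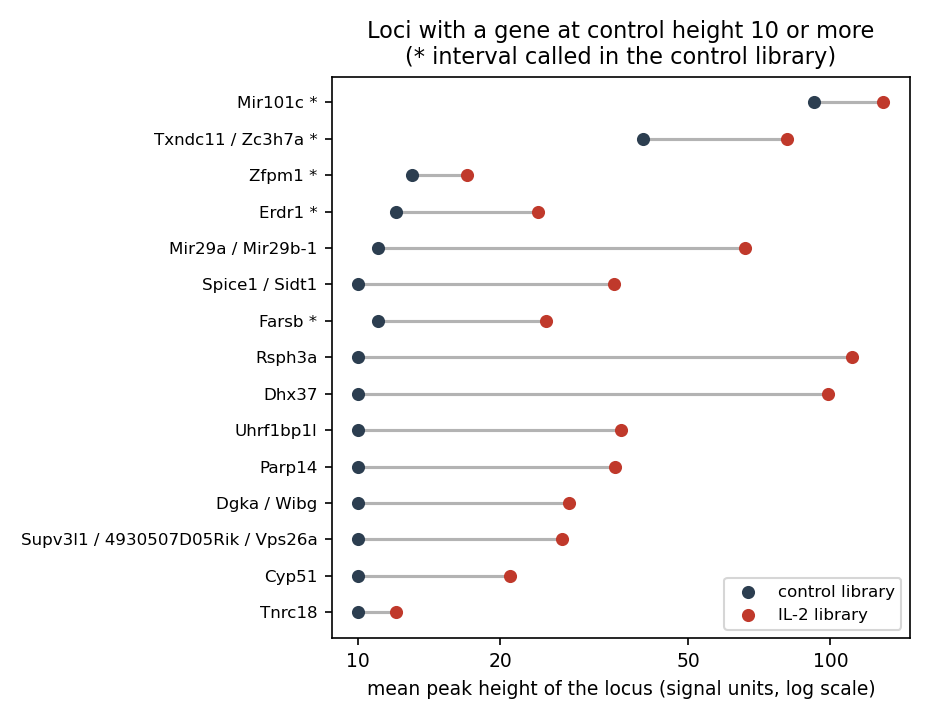
Control and IL-2 heights, as means over the genes of a locus on a log axis, for the 15 loci that hold a gene with a control height of 10 or more. Stars mark an interval called in the control library. Mir101c and Txndc11 / Zc3h7a stand apart in control, and IL-2 heights of the loci at 10 run from 12 at Tnrc18 to 111 at Rsph3a.

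Every member was higher with IL-2, which the list itself favours, since each gene was in the table for an IL-2 interval. The IL-2 height exceeded the control height at 193 of 193 members, from 1.2 times at Tnrc18 to 12.4 times at Gm9875, with a median of 3. The direction depends on the scale of the libraries: with both set to the same median, 68 of 193 members (35.2%) and 58.2% of all genes were higher with IL-2. With 5 added to both heights, the ratio was at least 2 at 122 of 193 members (63.2%), against 83.9% of all 4835 genes. The ratio was at most 0.5 at 0 members and 0% of all genes. The rule fixed a high denominator, so nothing is read from this difference. With 1 library per group and no read counts in the table, IL-2 against control has no replicate check and the depth is unknown.

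The median IL-2 height of members was 27 (quartiles 17.5 and 43, n = 193), against 20 (15 and 32.8, n = 4642) for other genes. For genes with 1 region, whose mean is the height of that region, the medians were 27 (n = 173) and 18 (n = 3102). The order-statistic 95% interval of the median was 24 to 31 for these members and 17 to 18 for the others, and it covers the choice of genes only. Genes that share a region repeat its height in these intervals. Counted by locus, the member median was 27.5 with an interval of 23.5 to 34.75 (n = 118). The IL-2 height was not set by the rule, but each gene was listed for an IL-2 interval, and none had an IL-2 height under 9. How that selection bears on these medians was not tested. The median IL-2 height went up by steps with the control height. The median was 15 for genes with a control height under 3, 16 at 3 to under 4, 20 at 4 to under 5, 22 at 5 to under 6, and 24 at 6 to under 7. Just outside the threshold, at 7 to under 8, 254 genes had a median of 25.5, and just inside, at 8 to under 10, 173 genes had 26. At 10 or more, 20 genes had 31.5. Over all genes the medians on either side of the threshold thus differed by less than 1 step of signal, and the quartiles overlapped. For genes with 1 region they were 24 (n = 208) and 26 (n = 154), and the quartiles overlapped there too. Both heights of a gene share the same stretch of genome, and its mappability or copy number was not tested.

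**Figure D3:**
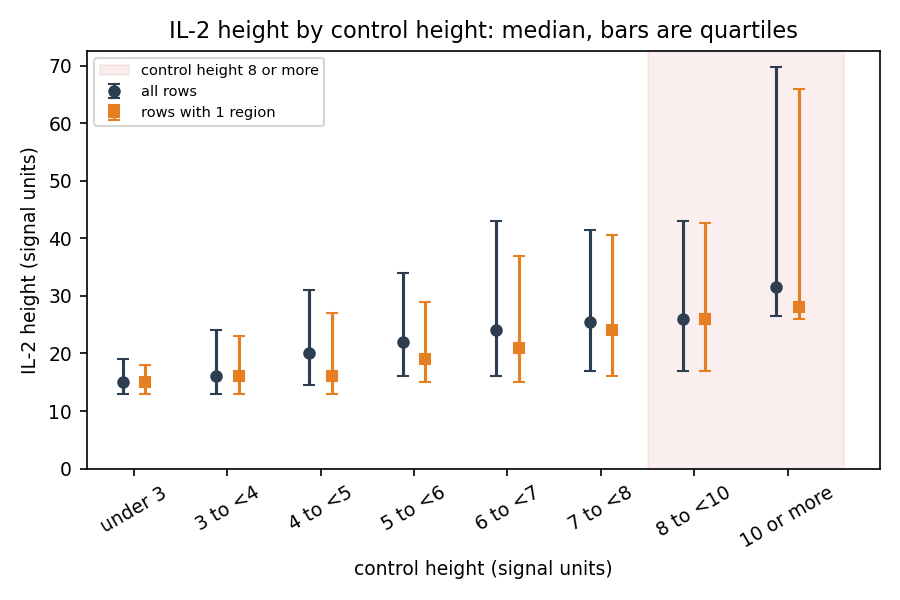
IL-2 height in signal units by class of control height, for all genes (circles) and genes with 1 region (squares). Points are medians and bars are quartiles. The median goes from 15 in the lowest class to 26 at 8 to under 10, with wide overlap between classes.

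Members were spread over the range of IL-2 heights. With all genes cut into 10 classes of IL-2 height, members made up 1.37% of the lowest class (4 of 292) and 7.02% of the highest (34 of 484). Besides Mir101c, Rsph3a, Dhx37 and Txndc11, the highest IL-2 heights were at Gm9875 (8 and 99), the locus of Tha1, Tmem235 and Gm11725 (9 and 97), Lsm4, a component of RNA processing complexes (9 and 95), Sema4a, a semaphorin of immune cells (8 and 86), Id3 (8 and 81) and S1pr4, a receptor for sphingosine 1-phosphate on lymphocytes (8 and 80). The lowest were at Golm1 (8 and 10), Clk3, a kinase of splicing factors (8 and 11), Tor4a with Nelfb (8 and 11.5 over 2 regions), Tnrc18, Dcaf8 (8 and 13), 2610318N02Rik (8 and 13), Scamp3 with Fam189b (9 and 13), Lrrc6 (9 and 14), Tbxa2r with Cactin and Gipc3 (9 and 14) and Hspd1 with Hspe1, the paired mitochondrial chaperonins (8 and 14). Nelfb is a subunit of the factor that holds RNA polymerase II near starts.

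The place of member regions relative to gene starts depended on which regions were set beside them. Of the 137 member regions 45 (32.8%, Wilson 95% interval 25.5 to 41.1%) were at most 1 kb from any start listed in the table. The share was 26.9% of the 5566 other regions, and 25.9% when those were weighted to the IL-2 heights of the members. Genes with 1 region were members in 5.28% of cases and genes with more regions in 1.28%, the height of the latter being a mean over regions. When only regions of genes with 1 region were compared, 38 of 104 member regions (36.5%, 27.9 to 46.1%) and 45.7% of 2131 others lay within 1 kb, and 41.6% of others weighted to the same IL-2 heights. Member regions were thus above the others in the first comparison and below them in the second. Within 5 kb the shares were 59.9% of member regions, 45.0% of others and 44.5% of weighted others over all regions. For genes with 1 region they were 60.6%, 63.3% and 60.1%, so members lay between the unweighted and the weighted value.

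Counted by gene, 50 of 193 members (25.9%, 20.2 to 32.5%) had a region within 1 kb of their own start, against 36.9% of other genes and 35.9% of others weighted to the same IL-2 heights. For genes with 1 region the shares were 24.3% and 34.6%, or 31.2% with that weighting. Genes that share a region are counted separately here, so the interval is too narrow. A shared region need not lie near the start of each of its genes, so nothing is read from these gaps. Member regions were often assigned to several genes. Of the member regions 47.4% (39.3 to 55.8%) had 2 or more genes, against 29.2% of others. Among regions of genes with 1 region these shares were 52.9% (43.4 to 62.2%) and 44.8%; the gap was smaller there. The remaining regions of members lay elsewhere in a gene (43.8%) or outside genes (23.4%), against 54.4% and 18.7% for others. For genes with 1 region the direction for elsewhere in a gene turned, with 43.3% of member regions, 36.1% of others and 37.6% of others weighted to the same IL-2 heights. Outside genes the shares there were 20.2%, 18.3% and 20.8%. Member genes had a median length of 12097 bp and other genes of 21952 bp. For genes with 1 region the medians were 11708 and 18397 bp.

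**Figure D4:**
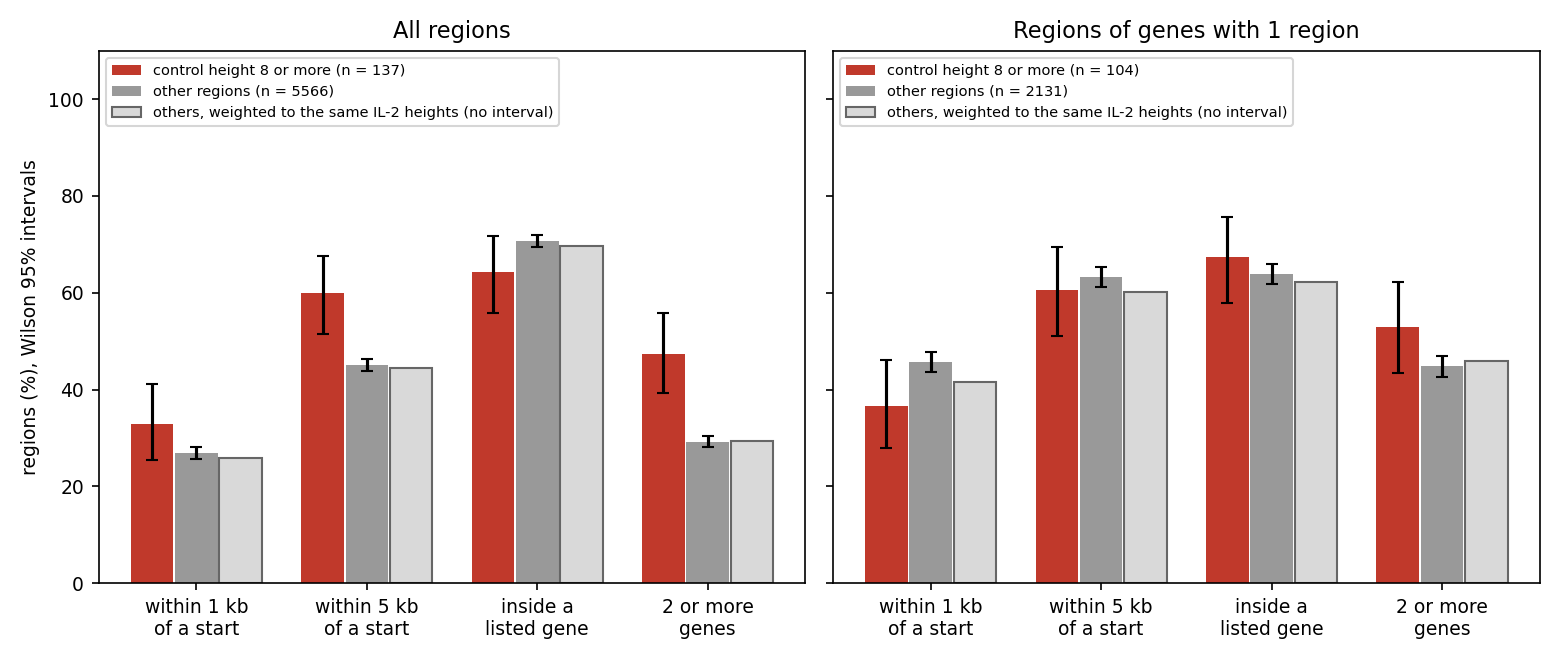
Share of regions by place, for member regions, other regions and other regions weighted to the same IL-2 heights. The left panel has all regions and the right panel only those of genes with 1 region, and bars are Wilson 95% intervals. Within 1 kb of a start the members are above the others on the left (32.8% and 26.9%) and below them on the right (36.5% and 45.7%).

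By chromosome the member share of regions went from 0 of 65 on X, where 3 counts of the total allow up to 4.62% and the Wilson interval reaches 5.58%, and 1 of 269 on chromosome 13 (0.372%) to 15 of 315 on chromosome 10 (4.76%, 2.91 to 7.71%) and 11 of 235 on chromosome 8 (4.68%). Over all chromosomes it was 2.40%. The 1 region listed on Y, at Erdr1, was a member.

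Known IL-2 targets were not among the members. Of 30 IL-2 STAT5 target genes 28 were listed, and 0 of them had a control height of 8 or more, against 3.99% of all genes. Their control heights went from 3 at Myc to 7 at Il24, with a median of 5.25, and their median IL-2 height was 47.1. Of these 28 genes 23 had several regions, and among such genes 1.28% were members in the whole table. Cytokine, chemokine and receptor genes gave 0 of 27, survival and apoptosis genes 0 of 11, and protein phosphatases 0 of 41. The Wilson intervals of these 4 shares reached 12.1%, 12.5%, 25.9% and 8.57%, and each contained 3.99%.

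Genes of the quiescent and naive state had 3 members of 19 listed (15.8%, Wilson interval 5.52 to 37.6%). They were Klf2 (8.33 and 20.67), Slfn2, a Schlafen gene needed for T cell quiescence (8 and 64), and Id3, an inhibitor of E proteins that marks memory precursors (8 and 81). This interval lies above 3.99%, but it rests on 3 genes, covers counting only, and is the only 1 of 14 lists of which that holds. The list was chosen with earlier results known, so nothing particular to it is read from the share. The other 16 had control heights from 3 to 7, with Tcf7 at 7 and 11, S1pr1 at 6 and 24, Il7r at 4.5 and 53 and Lef1 at 4.33 and 30.67. The region of Id3 lay 3762 bp downstream of its start, beyond the end of the gene.

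Genes of T cell receptor signalling had 2 members of 32 listed (6.25%). Cd247, which encodes the zeta chain of the receptor complex, had 8 and 46.5 over 2 regions, and Dgka was the other. Signalling and cytokine feedback genes had 2 of 34 (5.88%). Smad7, an inhibitor of transforming growth factor beta signalling, had 9 and 49 at 4011 bp inside the gene, and Tnip1, a partner of the A20 protein that restrains NF-kappaB, had 8 and 43.5. T cell transcription factors had 2 of 39 (5.13%), Id3 and Zfpm1. Immediate early genes had 2 of 22 (9.09%), namely Jun, a component of AP-1 (8 and 40, 738 bp upstream), and Zfp36l1, which promotes decay of AU-rich mRNAs (9 and 37, 2347 bp upstream). All of these shares had Wilson intervals that contained 3.99%.

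RNA processing genes had 2 of 20 (10%), Clk3 and Snhg7. Chromatin genes had 1 of 23 (Tnrc18), actin and adhesion genes 1 of 30 (Coro1c), and metabolic genes 1 of 10, the glutamine transporter Slc38a1 (8 and 16). Housekeeping genes had 1 of 6, the chaperone Hsp90ab1, whose start lay 141 bp from a region with 9 and 15 that was also assigned to Nfkbie and Slc35b2. B cell and myeloid genes had 0 of 2. Over all lists 16 of 297 listed genes were members (5.39%), against 3.99% of all genes.

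Small RNA genes made up more of the members than of the table by count, with few regions behind this. MicroRNA genes had 12 members of 80 (15%, Wilson interval 8.79 to 24.4%), which lay in 7 loci. That interval counts genes that share a region and its height separately, so it is too narrow and nothing is read from its lower limit. Counted by distinct regions, 8 of 95 regions near microRNA genes were member regions (8.42%), against 2.40% of all regions. Mir101c alone gave 2 of these 8 regions, and no interval was computed for shares of regions. The 2.40% also takes in genes with several regions, which were members in 1.28% of cases. Besides the loci shown by sequence and Mir101c, member microRNA genes included Mir2861 and Mir3960 in the locus of Cdk9 and Sh2d3c (8 and 33). The rest were Mir5136 at Ints5 (8 and 40), Mir704 at Pdia4 (8 and 43), Mir1903 (8 and 20) and Mir3074-2. Mir3074-2 overlaps Mir24-2 on the other strand. Small nucleolar RNA genes and their hosts had 6 of 43 (14.0%) in 2 loci, and 2 of 26 distinct regions near them were member regions (7.69%). Nothing is read from a share that rests on 2 regions. Snord42a, Snord4a and Snord42b lay with Rpl23a and Rab34 (8 and 44), and Snora43 and Snora17 with Snhg7, their host gene (9 and 13). In each of these loci 1 region stood for several genes.

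Zinc finger genes had 10 members of 114 (8.77%, Wilson interval 4.83 to 15.4%), in 10 different loci. For genes with 1 region, 8 of 83 zinc finger genes were members (9.64%), against 5.28% of all such genes. No interval was computed for this share of 8 genes, so no excess is read from it. Counted by distinct regions, 15 of 149 regions near zinc finger genes were member regions (10.1%), against 2.40% of all regions. That share has no interval either. The Wilson interval by gene lies above 3.99%, but it covers counting only. The 10 members were Zc3h7a, Zfpm1, Zfp36l1, Klf2, Zfp335 (8 and 20, 6 bp inside the gene), Zfp142, Zfp213, Zfp933, Zbtb24 and Zbtb39. Protein kinase names gave 4 of 46 (8.70%), of which Mapkbp1 is a kinase-binding protein and Cdk9, Map3k6 and Clk3 are kinases. Solute carriers gave 4 of 72 (5.56%), ubiquitin system genes 3 of 76 (3.95%), histones 1 of 41 (2.44%) and predicted genes 21 of 614 (3.42%). Ribosomal protein names gave 2 of 26, Rpl23a and the pseudogene Rpl35a-ps7. The remaining classes, GTPase regulators, mitochondrial ribosome, proteasome, translation factors and the tumour necrosis factor family, had 0 or 1 member each, and the class of major histocompatibility genes 0 of 2.

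**Figure D5:**
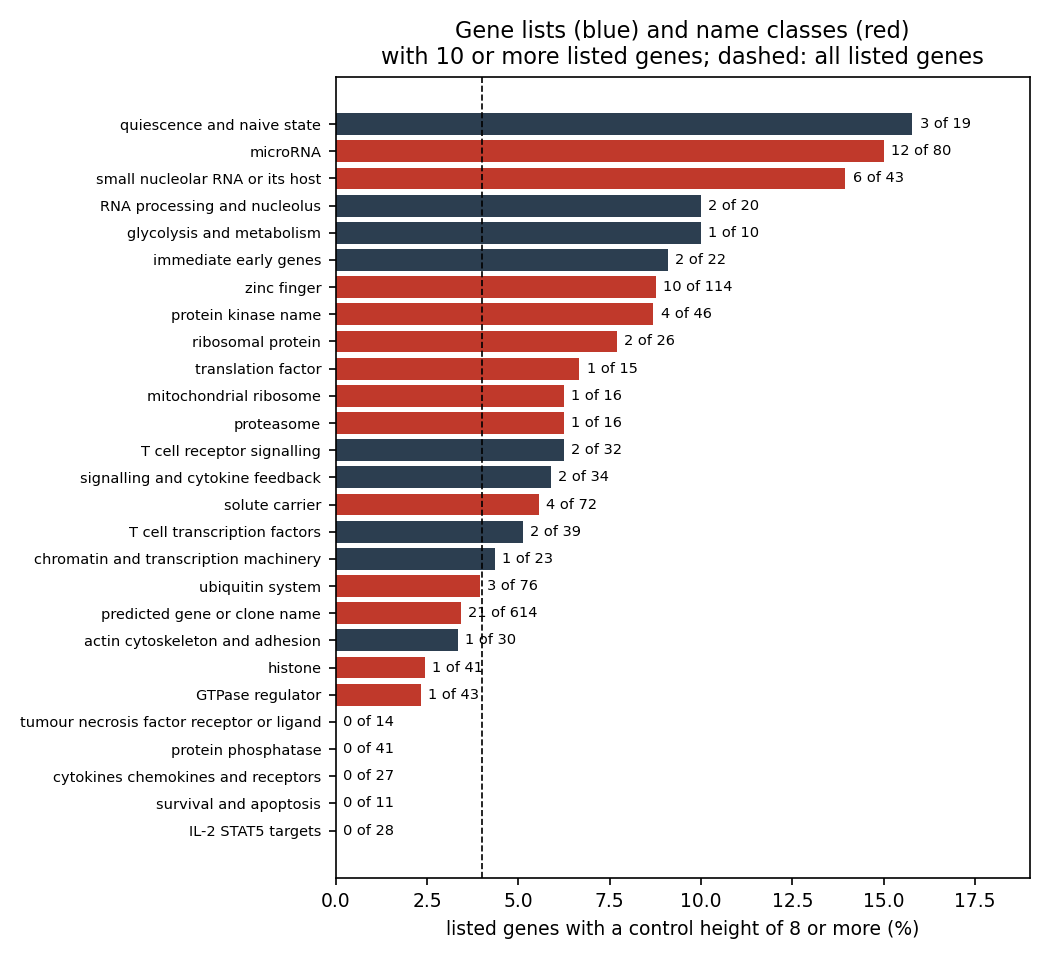
Percent of listed genes with a control height of 8 or more, for gene lists (blue) and name classes (red) with at least 10 listed genes. Numbers give members of listed genes, and the dashed line is the 3.99% over all genes. MicroRNA, small nucleolar RNA and quiescence genes have the highest shares, each from few loci, and IL-2 STAT5 targets have 0 of 28.

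Other members with known roles are given here after their values were seen, as a description. The share of such genes over the whole table was not computed. Members that act with RNA polymerase II after initiation were Leo1, of the PAF1 complex (8 and 70), Ints5, of the Integrator complex (8 and 40), Cdk9, the kinase that releases paused polymerase (8 and 33), and Nelfb. The region of Cdk9 lay 10192 bp upstream of it, and only that of Ints5 was within 1 kb of its gene's start among these 4. Chaperone genes were Dnajc2 (9 and 79, shared with the proteasome gene Psmc2), Pdia4 (8 and 43), Hsp90ab1, Hspd1 and Hspe1. The region of the last pair lay 4548 bp upstream of Hspd1 and 4332 bp downstream of the start of Hspe1. Genes of lymphocyte signalling were Notch1 (9 and 23.5 over 2 regions), Sit1, an adaptor that restrains T cell receptor signals (9 and 16), Kcnn4, a calcium-activated potassium channel (8 and 16), Themis2 (8 and 23) and Orai1. The regions of Sit1 and Themis2 lay beyond the end of the gene, 4925 and 21132 bp downstream of the start. That of Themis2 was nearer to the start of Rpa2 (6872 bp). Ifit3, an interferon-induced gene, had 8 and 63, and Ly6a, which encodes Sca-1, had 9 and 43 with Ly6i. Il5, a cytokine of helper cells, was assigned a region with 9 and 17 that lay 11654 bp downstream of its start.

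Loci with many genes differed in height. The largest held 5 member genes. The locus of Tha1, Tmem235 and Gm11725 had 9 and 97, that of Mapkbp1, LOC101056214, Jmjd7 and Pla2g4b had 8 and 42, and that of Gatc, Triap1 and Cox6a1 had 8 and 39. In the locus of Gm2240, 5730588L14Rik and Snhg7 the table determines 2 regions, with 9 and 13 and with 8 and 22. The locus of Limd1 and Sacm1l held regions with 7 and 13 and with 9 and 29. Of the 137 member regions 22 were also assigned to a gene that missed the rule.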

How the data were processed

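STAT5 ChIP-seq was measured in 1 library of untreated and 1 library of IL-2-treated cells. The deposited values are peak heights, a signal that the authors averaged over the binding regions of each gene. Per the submitters' processing notes, BWA and mm10 were used. The peak caller, depth and scaling were not given in the sources used here. Besides heights the table has other deposited columns of gene coordinates, interval names and distances, and 0 columns of other samples.

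Members and lists were chosen with earlier results of these data known. Of 4934 deposited genes, 99 T cell receptor segment genes were left out, 13 of them at the threshold of 8. Genes sharing an IL-2 interval were joined into loci (networkx 3.6.1). Ratios added a pseudocount of 5 to both heights. Weighted shares average other regions over 10 classes of IL-2 height in the members' proportions. Heights of single regions were solved from gene means where these determine them, and this step and the weighting were tested on simulated data. Wilson intervals (scipy 1.17.1, 95%) cover counting only, and 1 library per group allows no test. Gene symbols were as deposited. Promoters came from RefSeq (GRCm38.p6), whose gene identifiers matched 4700 of 4835 genes and 190 of 193 members. Genes named were all loci with a control height of 10 or more or a control interval, the 10 highest and 10 lowest loci by IL-2 height, the 10 with most genes and every member of a list. Of these, 1 locus is not reported here. Alternatives were thresholds of 7 and 10, pseudocounts of 1 and 10, ratios of 1.5 and 4, equal medians, genes with 1 region, single regions, and 5 kb.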

Additional observations from a re-analysis of the deposited data

How the results depend on the processing

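No paired analysis was possible because there was 1 library in each group. The number of loci went from 118 to 296 with a threshold of 7 and to 15 with 10, and that of member genes from 193 to 447 and 20. It was 122 loci with T cell receptor segments kept. The difference in the share near starts, 6.92 percentage points in favour of members against other regions of like IL-2 height, became -5.10 for genes with 1 region and -2.93 for regions with a determined height, so its direction rests on which regions are compared. It was 15.3 points within 5 kb, where the member share was 59.9%. The median IL-2 height of 27 became 31.5 with a threshold of 10 and lay between 26 and 28 under the others tried. The 122 members whose ratio reached 2 became 33 when 4 was required, 74 counted by loci, 301 and 12 with thresholds of 7 and 10, and 5 after equalising the medians of the libraries. That scaling shifted the median log2 ratio of all genes by -1.33 and left 68 of 193 members and 2813 of 4835 genes higher with IL-2. It removes any overall difference by construction, so direction rests on a scaling not given in the sources used here. Listed members numbered 34 and 3 with thresholds of 7 and 10 instead of 16, and 6 when the gene's own start had to lie within 1 kb. Fewer or more genes pass by construction as the threshold moves. Single regions, RefSeq starts and the removal of genes that have a control interval were chosen after seeing the data. Heights near 8 are whole numbers for genes with 1 region, and 122 of 193 members were at 8 exactly, so 1 signal unit decides most of the membership.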
